A study of Mus musculus with 4 samples.

Results

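Genes at or near the floor of detection in control small intestine and readable in small intestine lacking Lats1 and Lats2 were examined. They were chosen by the measured values in all 4 libraries, as the rows of the deposited table in which both control libraries were under 10 normalized counts and both Lats1/2 KO libraries were at 40 or more. A normalized count is a read count divided by a factor for the depth of its library. The rule was met by 23 of 29011 rows, or 0.0793%. Since the rule uses those values, the difference between knockout and control in these 23 genes is given as a description with no test. Silent is a matter of degree here: 1 of the 23 had no read in either control library, 4 had none in 1 of them, and 18 had at least 1 read in each.

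Total RNA came from undivided small intestine of 8-day-old mice (postnatal day 8), with 2 samples in each group. The control mice carried floxed Lats1 and Lats2 without Cre, per the series' design text. The genotype label of the controls reads VilCre-; Lats1/2-/-, and that of the knockouts VilCre+; Lats1/2-/-. Villin-Cre acts in the intestinal epithelium, so muscle, nerve, vessel and blood cells in the tissue should keep both genes. Whether the samples are separate animals is not in the labels, and the p-values below measure only the spread between these samples. In whole tissue, fewer cells of a type and less RNA per cell cannot be told apart, nor can more cells and more RNA per cell.

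Lats1 and Lats2 are the kinases at the end of the Hippo cascade. They phosphorylate the coactivators YAP and TAZ and keep them out of the nucleus. Without them YAP and TAZ enter the nucleus and act with TEAD transcription factors, which bind the motif GGAATG. In the intestine this pathway is known for its part in regeneration of the epithelium after injury and in the choice between proliferation and differentiation.

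Depth was 25135964 to 27811313 reads per control library and 30517967 to 32361940 per knockout library. Lats1 had 2316 and 2560.2 normalized counts in the controls and 751 and 661 in the knockouts, and it fell 3.45-fold (adjusted p = 0.00055, limma with Benjamini-Hochberg adjustment). Lats2 had 273 and 287 against 295 and 254 (adjusted p = 0.868). Counts over a whole gene can include exons outside the deleted part, and cells without Cre should keep the gene. The Lats2 values therefore do not check its deletion, and why Lats1 fell and Lats2 did not was not tested. Of the epithelial markers, Vil1 (adjusted p = 0.637), Epcam (0.759) and Cdx2 (0.779) did not pass the test, and Krt20, a keratin of mature enterocytes, rose 2.34-fold (0.000765). In the same set of markers, Muc2 fell 5.83-fold (adjusted p = 0.000248, limma), Chga 3.92-fold (0.00098), Lgr5 3.01-fold (0.0018) and Fabp2 1.46-fold (0.0445).

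Promoter sequences are printed first for 4 of the genes. Those of Ces2f and Slc6a20b are shown because they were the only ones of the 18 promoters examined that held the TEAD motif. This share of 11.1% was no higher than the 14.7% of all promoter windows or the 12.6% in tested genes. The promoters of Gm3776 and Gm10639 are shown because these genes lie side by side and are nearly identical. Each window runs from 250 bases before to 50 bases after the start of transcription and is written 5′ to 3′ on the strand of the gene (RefSeq, GRCm38.p6). The windows are chr8:104947106-104947405 on the plus strand for Ces2f and chr9:123632489-123632788 on the minus strand for Slc6a20b. Capitals mark GGAATG or its reverse complement CATTCC.
Ces2f: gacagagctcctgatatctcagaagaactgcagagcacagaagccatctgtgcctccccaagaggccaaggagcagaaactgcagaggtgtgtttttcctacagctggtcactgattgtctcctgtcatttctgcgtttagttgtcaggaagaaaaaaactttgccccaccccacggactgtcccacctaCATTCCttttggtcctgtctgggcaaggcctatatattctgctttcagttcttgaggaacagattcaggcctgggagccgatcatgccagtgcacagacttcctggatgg
Slc6a20b: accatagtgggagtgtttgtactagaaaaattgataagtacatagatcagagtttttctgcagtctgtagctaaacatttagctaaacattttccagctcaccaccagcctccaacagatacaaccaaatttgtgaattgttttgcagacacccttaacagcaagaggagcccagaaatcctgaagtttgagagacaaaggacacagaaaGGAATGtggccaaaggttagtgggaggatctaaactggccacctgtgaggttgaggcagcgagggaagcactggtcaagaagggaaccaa
In the next pair, at chr9:78256879-78257178 for Gm3776 and chr9:78289678-78289977 for Gm10639, both on the plus strand, capitals mark bases that differ between the windows or have no partner in the other.
Gm3776: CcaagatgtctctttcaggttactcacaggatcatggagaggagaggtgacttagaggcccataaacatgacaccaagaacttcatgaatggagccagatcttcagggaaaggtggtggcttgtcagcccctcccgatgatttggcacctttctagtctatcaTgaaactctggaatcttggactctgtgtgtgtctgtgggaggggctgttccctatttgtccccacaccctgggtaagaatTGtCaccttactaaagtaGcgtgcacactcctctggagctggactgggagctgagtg
Gm10639: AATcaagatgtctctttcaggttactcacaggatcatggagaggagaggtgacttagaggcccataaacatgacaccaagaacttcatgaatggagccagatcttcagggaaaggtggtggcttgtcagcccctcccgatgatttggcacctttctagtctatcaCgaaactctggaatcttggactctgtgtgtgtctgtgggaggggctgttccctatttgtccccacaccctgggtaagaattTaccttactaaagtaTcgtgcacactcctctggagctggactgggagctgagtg
The alignment of the pair held 294 matching bases and 4 mismatches, an identity of 97.4% with unpaired bases counted as differences. The window of Gsta1, the glutathione transferase gene beside them, was 90.7% identical to that of Gm3776 and 88.6% identical to that of Gm10639 on the same measure. Most of those differences were unpaired bases. With Gm3776 there were 284 matches, 3 mismatches and 13 unpaired bases in each window. With Gm10639 there were 279 matches, 6 mismatches and 15 unpaired bases in each.

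Summed over the 23 genes there were 79 and 72 control reads, against 2737 and 3575 knockout reads. In normalized counts the sums were 81.8 and 82.3 against 2532 and 3230. The highest control value of any of them was 9.32 and the lowest knockout value 40.7. Every knockout value lay above every control value, as the rule requires. Such a separation was seen in 34.9% of the 16415 genes tested. All 23 passed the filter on low values, and they did so only through their knockout libraries. All 23 also passed the limma test, against 15.2% of tested genes that rose, and nothing is read from that count.

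**Figure D1:**
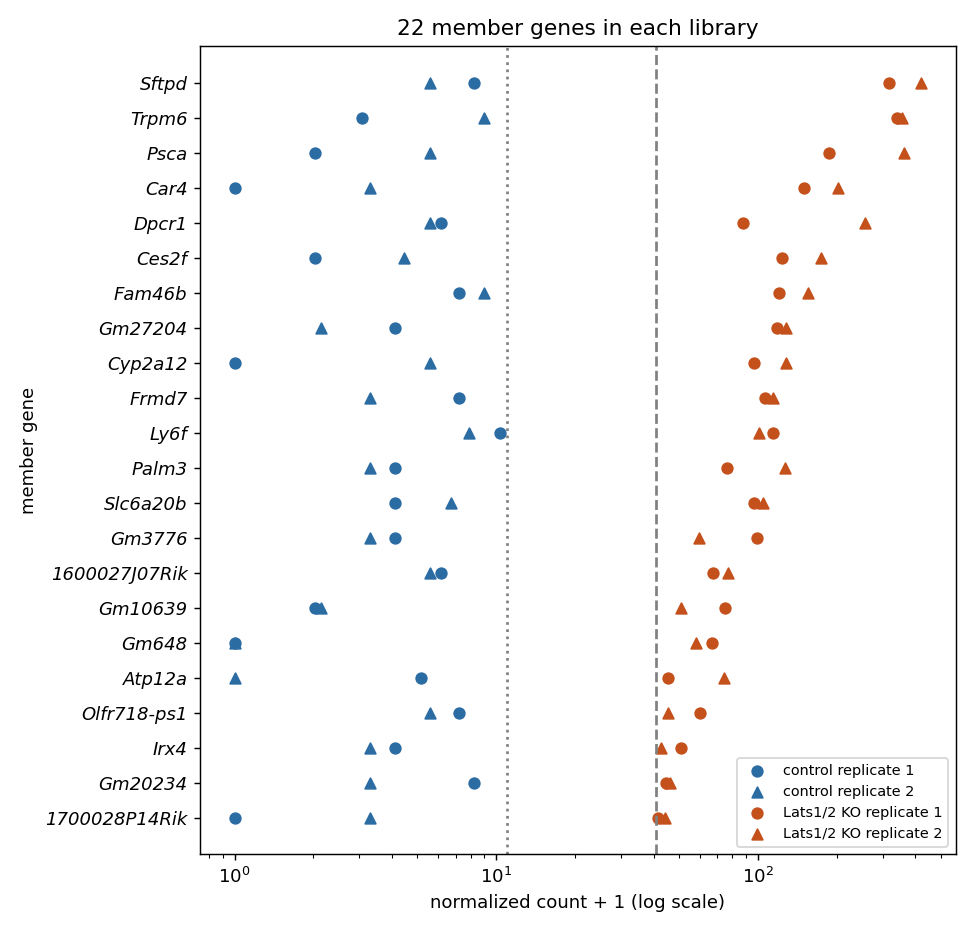
Normalized count plus 1 (log axis) of 22 of the genes in each of the 4 libraries, with the control limit dotted and the knockout limit dashed. Control values run from 0 to 9.32 and knockout values from 40.7 to 420.2.

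These genes were on at modest levels. Their mean knockout value ran from 42.0 to 368 normalized counts with a median of 100.3, against a median of 412 over all tested genes, and 0 of the 23 reached that median. Per kilobase of exon, 5 of the 23 were above the median of tested genes, which was 96.0 normalized counts per kilobase. Psca was the highest on that scale at 318. The ratio of the knockout mean to the control mean could be formed for 22 genes and ran from 9.30 to 153 with a median of 32.2.

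The rule lies on a continuum. In total 12317 rows (42.5%) were under 10 in both controls, and 95.5% of those were under 10 in both knockouts as well. Just inside the control limit were Ly6f at 9.32 and Fam46b and Trpm6 at 8.00. Just outside it were Klrg2 (8.28 and 10.3 in the controls, 216 and 212 in the knockouts), Alpk3 (10.4 and 4.57, then 133 and 108) and Nup62cl (10.4 and 8.00, then 66.6 and 75.0). Just inside the knockout limit were 1700028P14Rik at 40.7, Irx4 at 41.6 and Gm20234 at 43.5. Just outside were D430001F17Rik and Hepacam, both with a lower knockout value of 39.8, and Vmn2r3, at 0 in both controls and at 41.6 and 38.9 in the knockouts. The reverse rule, 40 or more in both controls and under 10 in both knockouts, was met by 22 genes.

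**Figure D2:**
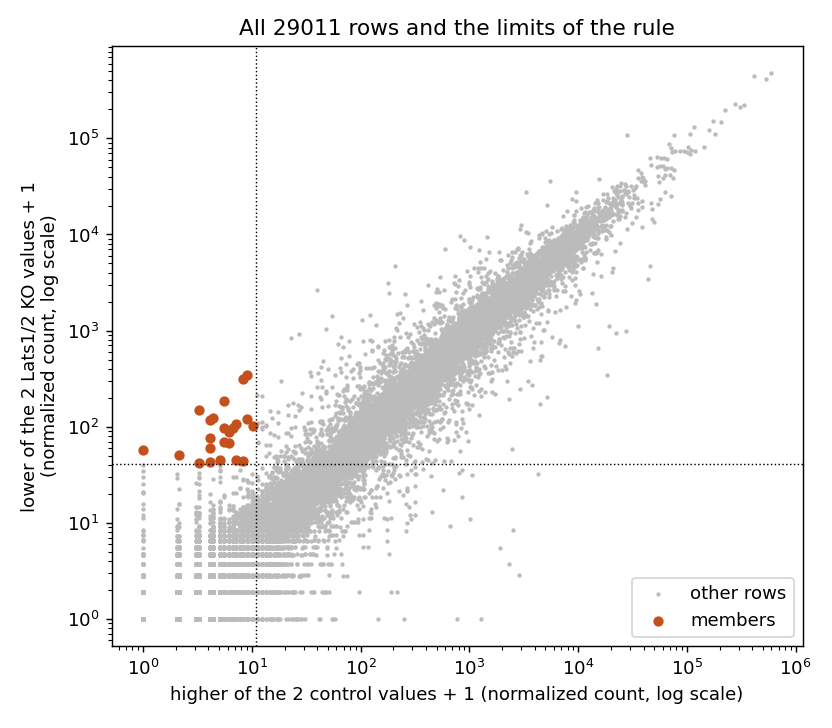
Each of the 29011 rows by the higher of its control values (horizontal) and the lower of its knockout values (vertical), as normalized count plus 1 on log axes. The 23 genes fill the corner under 10 and at or above 40, and rows continue on both sides of each limit.

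The first group holds proteins of mucosal surfaces. Sftpd (ENSMUSG00000021795, chr14:41172214-41185149, minus strand) encodes surfactant protein D, a secreted collectin that binds sugars on microbes and is best known in the lung. It had 7.25 and 4.57 normalized counts in the controls and 315 and 420.2 in the knockouts. Its knockout mean, not scaled by length, was the highest of the 23, 368 ± 74.0 (SD, n = 2) against 5.91 ± 1.89, a ratio of 62.3 with a 95% counting interval of 34.3 to 124. The interval, exact and from the recovered reads, covers counting error only. Psca (ENSMUSG00000022598, chr15:74714839-74717069, plus strand) encodes prostate stem cell antigen, a small protein of the Ly6 family anchored to the cell surface and known from gastric and urogenital epithelium. It had 1.04 and 4.57 in the controls and 186 and 361 in the knockouts, a ratio of means of 97.6 (43.1 to 313). Both knockouts were far above both controls, and the second knockout was 1.94 times the first.

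Ly6f (ENSMUSG00000022583, chr15:75268421-75272235, plus strand), another gene of the Ly6 family, stood nearest the control limit. It had 9.32 and 6.86 in the controls and 114 and 100.3 in the knockouts, a ratio of 13.2 (7.80 to 23.8). Psca and Ly6f lie 551 kb apart on chromosome 15. Dpcr1 (ENSMUSG00000073408, also named Mucl3, chr17:35635752-35643695, minus strand) encodes a mucin-like membrane protein. It had 5.18 and 4.57 in the controls and 87.0 and 257 in the knockouts, a ratio of 35.3 (18.4 to 77.9). Its knockout libraries differed more than those of any other of the 23, by 2.95-fold.

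The second group handles ions and small solutes, as transporters or, for Car4, as an enzyme. Trpm6 (ENSMUSG00000024727, chr19:18749983-18892511, plus strand) encodes a channel with a kinase domain through which magnesium is taken up in intestine and kidney. It had 2.07 and 8.00 normalized counts in the controls and 340.5 and 353 in the knockouts. The knockout mean was 347 ± 9.07 and the control mean 5.04 ± 4.19 (SD, n = 2), a ratio of 68.9 (37.2 to 156), and the knockout libraries lay close together. Car4 (ENSMUSG00000000805, chr11:84957786-84966044, plus strand) encodes carbonic anhydrase 4, an enzyme on the outer cell surface that interconverts carbon dioxide and bicarbonate. It had 0 and 2.29 in the controls, 2 reads in all, and 149 and 202 in the knockouts. Its ratio of 153 is the highest point value and among the least certain, with an interval of 44.4 to 1339.

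Slc6a20b (ENSMUSG00000025243, chr9:123590800-123632565, minus strand) belongs to the SLC6 family of sodium-coupled transporters, next to the imino acid transporter gene Slc6a20a. It had 3.11 and 5.71 in the controls and 95.3 and 104 in the knockouts. Atp12a (ENSMUSG00000022229, chr14:56365068-56388550, plus strand) encodes the catalytic subunit of the non-gastric proton and potassium pump. It had 4.14 and 0 in the controls and 44.4 and 73.2 in the knockouts. The ratios of means were 22.6 for Slc6a20b and 28.4 for Atp12a.

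The third group is of enzymes that handle foreign compounds and esters. Ces2f (ENSMUSG00000062826, chr8:104947356-104960047, plus strand) is a carboxylesterase of the Ces2 cluster. It had 1.04 and 3.43 normalized counts in the controls and 123 and 173 in the knockouts, a ratio of 66.4 (26.5 to 252). Cyp2a12 (ENSMUSG00000060407, chr7:27029081-27037375, plus strand) is a cytochrome P450 known from mouse liver. It had 0 and 4.57 in the controls and 95.3 and 127 in the knockouts, a ratio of 48.7 (19.8 to 189.9). Gm3776 (ENSMUSG00000111709, chr9:78257129-78269166) and Gm10639 (ENSMUSG00000074179, chr9:78289923-78305525), both on the plus strand, are predicted genes whose transcripts match the glutathione transferase genes Gsta1 and Gsta2. Gm3776 had 3.11 and 2.29 in the controls and 98.1 and 58.7 in the knockouts. Gm10639 had 1.04 and 1.14 in the controls, 1 read in each, and 74.0 and 49.7 in the knockouts. Both were higher in the first knockout library, the opposite of most of the 23.

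Of the remaining named proteins, Frmd7 (ENSMUSG00000036131, chrX:50895180-50942710, minus strand) carries a FERM domain, which links membranes to the cytoskeleton, and is known from a human eye movement disorder. It had 6.21 and 2.29 normalized counts in the controls and 105 and 113 in the knockouts, a ratio of 25.7 (12.6 to 58.9). Palm3 (ENSMUSG00000047986, chr8:84021471-84030295, plus strand), of the paralemmin family of membrane-bound proteins, had 3.11 and 2.29 in the controls and 74.9 and 126 in the knockouts, a ratio of 37.2 (15.6 to 115). Fam46b (ENSMUSG00000046694, also named Tent5b, chr4:133480132-133487938, plus strand) encodes a non-canonical poly(A) polymerase. It had 6.21 and 8.00 in the controls and 119 and 155 in the knockouts, a ratio of 19.3 (11.2 to 36.9). Irx4 (ENSMUSG00000021604, chr13:73260479-73269608, plus strand) is an Iroquois homeobox gene known from the heart ventricle, and it was the only homeobox gene among the 23. It had 3.11 and 2.29 in the controls and 49.96 and 41.6 in the knockouts.

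The other 6 genes are little described. Gm27204 (chr9:72774063-72776225, minus strand), a long intergenic RNA gene, had 3.11 and 1.14 normalized counts in the controls and 118 and 127 in the knockouts, and per kilobase of exon it was second to Psca at 232. The long intergenic RNA gene 1600027J07Rik had 5.18 and 4.57, then 66.6 and 75.9. Gm648 (chrX:56543874-56549606, minus strand), annotated as protein coding, was the only gene at 0 in both controls and had 65.7 and 56.9 in the knockouts. Against a floor of 3 reads per library this is at least 18.8-fold higher. It was also the highest in the knockouts of the 2517 rows at 0 in both controls. The antisense gene Gm20234 had 7.25 and 2.29 in the controls and 43.5 and 45.2 in the knockouts. For 1700028P14Rik the values were 0 and 2.29, then 40.7 and 43.4, and for Olfr718-ps1, named as an olfactory receptor pseudogene, they were 6.21 and 4.57, then 59.2 and 44.3.

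The authors' deposited table gave all 23 an adjusted p under 0.05, against 12.8% of its genes with an adjusted p that were past it and higher. The rule used the same values, so nothing is read from that count either. The log2 fold changes in the authors' deposited table ran from 2.37 for Gm20234 to 6.08 for Car4. Where a ratio of means could be formed, the value in the authors' deposited table was below the log2 of that ratio in 22 of 22 genes.

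Properties that the rule did not name were also compared. They need not be independent of it, since its limits are on counts that are not scaled by gene length. Of the 23 genes, 20 were annotated as protein coding, 2 as long intergenic RNA and 1 as antisense. Protein-coding genes were 87.0% of the 23, close to the 87.7% of all tested genes and far from the 25.8% of rows under 10 in both controls. Of the 22 genes that met the reverse rule, 22 were protein coding. The genes were short: their median span was 8825 bases against 20831.5 in tested genes, with 18 of 23 under 20000 bases, and their median exon length was 2142 against 4043 bases. They lay on 12 chromosomes, with 4 on chromosome 9 and 3 on chromosome 8. Gm3776 and Gm10639, 20.8 kb apart, were the only pair within 500 kb.

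The knockout libraries did not carry these genes equally. The second library was higher in 17 of 23 genes, or 73.9%, against 51.0% of the 4439 other tested genes whose knockout mean fell in the same range. The ratio of the higher to the lower knockout value had a median of 1.33 in the 23 and 1.13 in the others. It exceeded 1.5 in 6 of 23, or 26.1%, against 9.01% of the others. Dpcr1 and Psca, with the widest gaps (2.95 and 1.94), were both higher in the second library. Control libraries of the 22 genes lost in the knockout had a median ratio of 1.29, with 36.4% above 1.5. These knockout values are the ones the rule used, and genes are not replicates of a library. The other tested genes were matched on the range of knockout mean only. The shares are a description, and no test of these ratios was made.

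**Figure D3:**
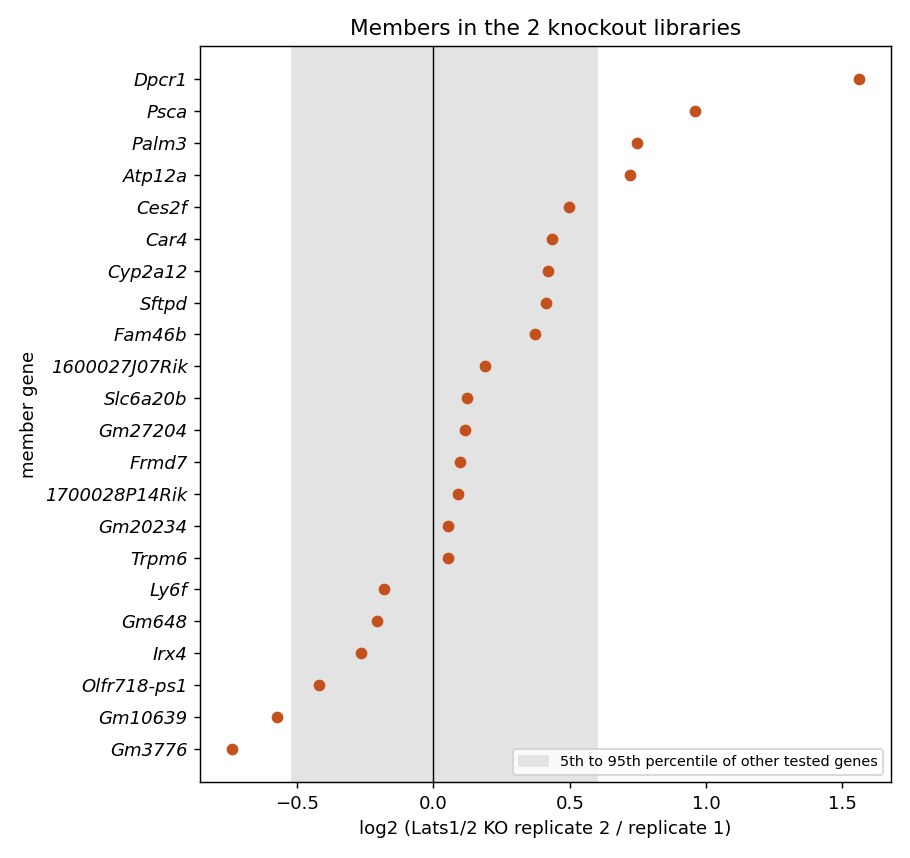
Log2 ratio of the second to the first knockout library for 22 of the genes, with the 5th to 95th percentile of other tested genes in the same range of level shaded (-0.52 to 0.60). Points to the right of 0 are higher in the second library, and 6 of the 22 lie outside the shading.

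Families of these genes moved both ways. Relatives were rows with the same symbol stem as one of the 23 that did not meet the rule themselves. The stem was the letters before the first digit, at least 3 of them. Unnamed gene models and stems shared by over 60 rows were left out, so the Fam, Cyp, Slc and Ly6 genes were not counted. There were 53 in 7 families, and 37 were tested. The test found 5 higher, or 13.5% against 15.2% of all tested genes, and 11 lower, or 29.7% against 12.3%. The remaining 21 were not past the threshold, and the median log2 change was -0.29 against -0.00 over all tested genes. Members of a family share sequence and neighbourhood, so they are not independent replicates.

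Besides Car4, 10 carbonic anhydrase genes were tested, of which 2 rose and 3 fell. Car2, the abundant cytosolic enzyme, had 530.0 and 583 normalized counts in the controls and 2641 and 3656 in the knockouts and rose 5.58-fold on the log2(value + 1) scale (log2 change 2.48 ± 0.16 SE, adjusted p = 0.000836, limma). Car13, also cytosolic, rose 1.72-fold (0.00163). The membrane enzymes Car12 and Car9 fell, with log2 changes of -1.87 and -1.57 (0.00113 and 0.00224), as did Car8, a relative without enzyme activity, with -1.81 (0.00264). Car12 had 1059 and 952 in the controls and 307 and 244 in the knockouts.

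The carboxylesterases split within 1 cluster on chromosome 8. Ces2b had 42.4 and 42.3 normalized counts in the controls and 192 and 313 in the knockouts and rose 5.67-fold (log2 change 2.50 ± 0.26 SE, adjusted p = 0.00276, limma). Ces2c had 384 and 377, then 1002 and 1083, and rose 2.73-fold (0.000681). Ces2a and Ces2e fell, with log2 changes of -1.17 and -1.10 (0.00425 and 0.00282). Ces2e, 12.7 kb before Ces2f, had 11143 and 10519.8 in the controls and 5627 and 4508 in the knockouts. Ces2g, 1.67 kb beyond Ces2f, had 123 and 121, then 143 and 239 (0.142, and 0.0416 without the first knockout library). Among the Ces1 genes, which lie apart from this cluster and are best known from liver, Ces1c, Ces1b and Ces1f fell, with log2 changes of -3.78, -3.86 and -4.08 (0.00304, 0.00525 and 0.0116).

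**Figure D4:**
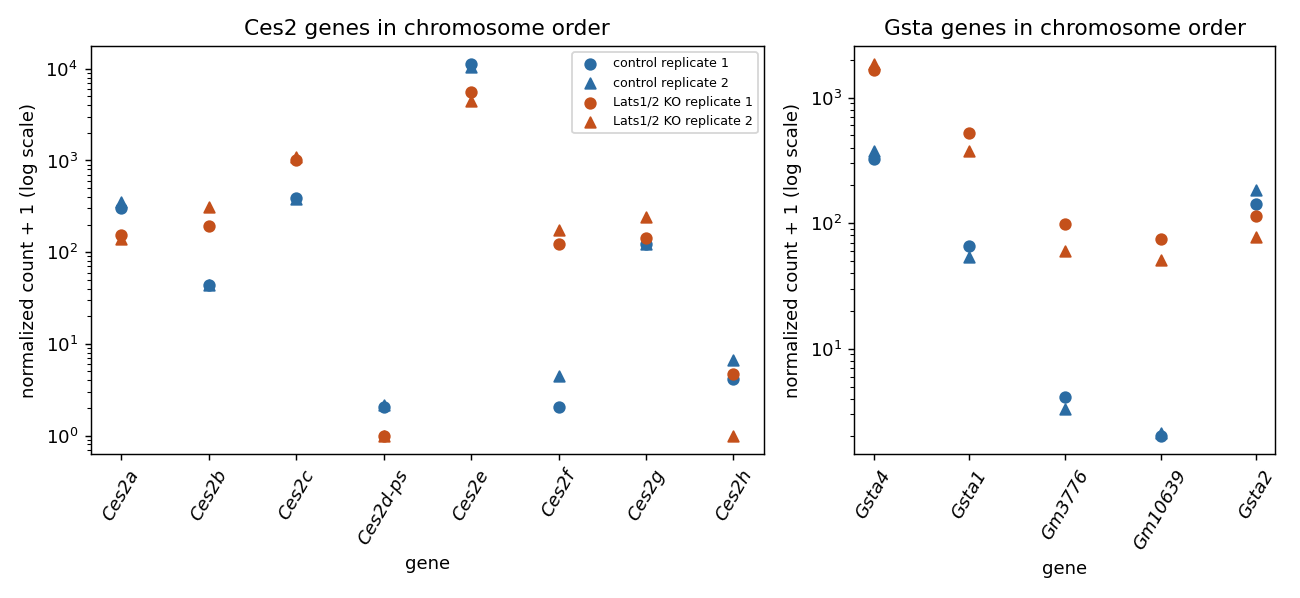
Normalized count plus 1 (log axis) in each library for the Ces2 genes (left) and the Gsta genes with Gm3776 and Gm10639 (right), in chromosome order. Ces2f is near 0 in the controls beside Ces2e, which fell, and Gm3776 and Gm10639 stand between Gsta1, which rose, and Gsta2.

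In the families of Frmd7, Trpm6, Irx4 and Palm3 there was 1 riser. Frmd8 rose 1.47-fold (adjusted p = 0.00662, limma) and was the only riser among the 6 tested Frmd genes. Of the 5 tested Trpm genes Trpm2 and Trpm3 fell (0.0147 and 0.0327), and Trpm7, the closest relative of Trpm6 and also a magnesium channel with a kinase, had 3522 and 3806, then 4354 and 4002 (0.123). Irx3 and Palm did not pass (0.554 and 0.15). Leaving out 1 library ended the call of Frmd8 (the first knockout, adjusted p = 0.0561), of Trpm2 (either control or the second knockout, up to 0.0695) and of Trpm3 (any library, up to 0.136). Trpm3 did not pass with DESeq2 (0.208) or with no filter (0.0696) either.

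**Figure D5:**
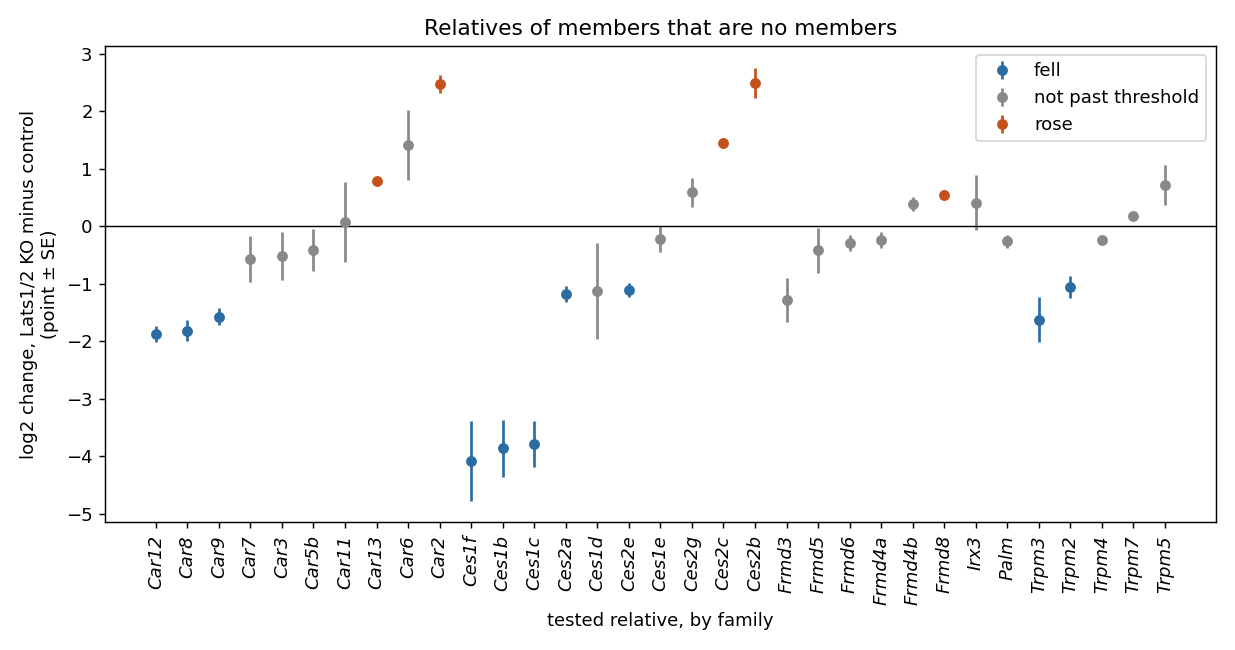
Log2 change (knockout minus control, point ± SE, n = 2 a group) of 33 tested relatives by family, on the log2(normalized count + 1) scale. Rises among the relatives are seen in Car, Ces and Frmd, and falls in Car, Ces and Trpm.

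Further genes that work with some of the 23 were looked up after their values had been seen. The magnesium transport gene Cnnm2 fell by 0.78 on the log2 scale (adjusted p = 0.00458, limma), and Cnnm4 did not pass (0.845). Slc26a6, an anion exchanger of the brush border that can exchange bicarbonate, rose 2.16-fold (0.0321), but it did not pass with DESeq2 (0.0524), with no filter (0.0799) or without either knockout library (up to 0.141). The pump subunit Atp1b1 had 14432 and 14367, then 14785 and 14095 (0.974). Of the other Fam46 genes, which the stem rule did not count, Fam46c fell by 1.02 (0.00407) and Fam46a did not pass (0.471). Slc6a19, the main neutral amino acid transporter of the brush border, did not pass (0.674).

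For some of the genes, reads may be shared with other genes. The annotated transcript of Gm3776 was covered in full by Gsta1 at 99.5% identity, and that of Gm10639 at 96.9%. Gsta2, on their other side, covered 99.4% of a transcript of each, at 97.2% and 98.2% identity. Gsta1 itself had 65.2 and 52.6 normalized counts in the controls and 526 and 372 in the knockouts and rose 7.44-fold (log2 change 2.90 ± 0.22 SE, adjusted p = 0.00121, limma). Like Gm3776 and Gm10639 it was higher in the first knockout library. The sources used here do not give how reads matching several places were assigned, so the values of these 4 genes cannot be told apart with certainty. Gsta2 had 141 and 184, then 113 and 75.9 (0.0686), so it was not higher in the knockouts as the other 3 were. Of the Gsta genes with no such match, Gsta4 rose 4.95-fold (0.000348) and Gsta3 rose 2.21-fold (0.00187).

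Slc6a20b shared 84.9% of a 2017-base transcript with Slc6a20a at 91.6% identity, and 1800 exon bases with Sacm1l on the opposite strand. Slc6a20a had 653 and 502, then 1421 and 955, and rose 2.03-fold (adjusted p = 0.0231, limma), but it did not pass in 3 of 11 alternative analyses, where its adjusted p reached 0.0792. Those were the ones without the second control, without the first knockout library and with no filter. Sacm1l rose 1.20-fold (0.044), a call that ended with DESeq2 (0.0859), with no filter (0.0878) and without the first control or either knockout library (up to 0.227). Cyp2a12 was covered in full by Cyp2a22 at 95.3% identity, but Cyp2a22 had at most 1.14 normalized counts in any library.

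Dpcr1 lies wholly within Sfta2 on the opposite strand, with 0 exon bases in common. Sfta2, named as a surfactant-associated gene, had 3.11 and 3.43, then 27.8 and 31.6, and rose 7.18-fold (adjusted p = 0.00404, limma). Unlike Dpcr1, it was about equal in the knockout libraries. Gm20234 overlaps 4927 bases of Slfn2, which had 3302 and 1570.4, then 4801 and 4819.8 (0.0616, but 0.000383 and 0.00532 without the first and the second control library), and again no exon bases are shared. Of the Gm20234 transcript, 23.8% matched Tbc1d23 at 94.8% identity. Tbc1d23 had 2810 and 2975, then 3448 and 3406, and was called higher. Tmem72, Olfr328 and AC159002.2 each matched 23.4% of it and had at most 2.29 normalized counts in any library. Atp12a shares 557 exon bases with the antisense gene Gm10873, which had at most 0.904 normalized counts in any library. The sources used here do not give whether reads were counted by strand.

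The nearest tested gene on each side of the 23 was then examined, 44 genes in all. Risers numbered 12, or 27.3% against 15.2% of tested genes, 3 genes fell, or 6.82% against 12.3%, and 29 were not past the threshold. Of the risers, 4 shared sequence with or overlapped the gene they stood beside, and among the 37 neighbours that did neither, 8 rose, or 21.6%. The count of risers was 7 without the first knockout library and 6 without the second. The median log2 change of the neighbours was 0.24. For 4 of the 44 the gap was over 1000 kb, so nearest does not always mean near.

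Anxa1, an annexin, rose by a log2 change of 2.71 ± 0.15 SE from 454 and 502 to 2681 and 3642 (adjusted p = 0.000665, limma), but it is the neighbour of Trpm6 at 1481 kb. On the other side of Trpm6, at 31.6 kb, D030056L22Rik rose 1.61-fold (0.00938). Vars2, 11.9 kb from Dpcr1, rose 1.53-fold (0.014). Both calls ended when either knockout library was left out, with log2 changes of 0.59 to 0.70. Rap2c and Stk26, on the X chromosome beside Frmd7, rose 1.97-fold and 1.84-fold (0.00103 and 0.0165), the latter not without either of the knockout libraries (0.0641 and 0.0913). Them6 and 4933427E11Rik, beside Psca at 4.13 and 4.46 kb, rose 3.98-fold and 3.63-fold (0.00121 and 0.0179). Those that fell were Ces2e, Cyp2b10, a P450 gene 1102 kb from Cyp2a12 (log2 change -3.32, adjusted p = 0.00311), and Ints6l beside Gm648 (-0.71, 0.0164, and 0.0854 without the second knockout library).

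Within 250 kb of Psca, 6 of the 10 tested genes rose, against 15.2% of all tested genes, and 4 were not past the threshold. The risers were Them6, 4933427E11Rik, Jrk and 3 genes of the Ly6 family or named beside it, Gml, Gml2 and 2010109I03Rik. The last had 21.7 and 68.6, then 236 and 435, an 8.08-fold change (adjusted p = 0.0164, limma). The Ly6 family genes Ly6d, Ly6e and Lynx1 in the same window did not pass (0.618, 0.203 and 0.163). Jrk and 4933427E11Rik overlap on opposite strands and may share reads, so they need not be separate risers. Of the 6 risers, Them6 alone passed with any library left out. Jrk, Gml and Gml2 did not pass without either knockout library (up to 0.0825, 0.104 and 0.135), Gml and Gml2 also not with no filter (0.0541 and 0.0711), 2010109I03Rik not without the second (0.0852), and 4933427E11Rik not without the first control or the second knockout (up to 0.0907). Beside Ly6f, BC025446 rose 2.08-fold by limma (0.0464) but did not pass with edgeR (0.0526), with DESeq2 (0.11), with no filter (0.109) or without either knockout library (up to 0.175). The window was looked at because Psca is a leading gene of the set, and no count of windows like it was made.

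Of 15 lists of tissue, cell type and pathway genes, only those of stomach and of airway and lung held any of the 23, namely Psca and Sftpd. Of 10 other stomach genes tested 0 rose by limma, edgeR or DESeq2, with 1 higher at an unadjusted p under 0.05 in limma, and 4 fell (Gkn3, Muc6, Pgc and Lipf, the last not without either knockout library, adjusted p up to 0.0637). The other 6 were not past the threshold, and a further 9 had too few counts to test. Over the alternative analyses the number that fell ranged from 4 to 8, the highest without the second knockout library. The sum of the list without Psca was 9295 and 5246 normalized counts in the controls and 558 and 1666 in the knockouts. The second knockout library was the higher of the knockouts there, as it was for Psca and Dpcr1, and the values of 2 genes show it. Tff2, a trefoil peptide of mucous glands, had 4317 and 2525 in the controls and 31.5 and 608 in the knockouts (adjusted p = 0.0516, limma), and passed in 4 of 11 alternatives, with 0.00363 without the second knockout library and 0.02 without the first. Ctse, an aspartic protease of gastric surface cells, had 351 and 336, then 99.0 and 288 (0.167), and passed without the second knockout library (0.00951). The part of this difference in the values of Psca and Dpcr1 was not tested. Among genes of the gastric glands, the mucin gene Muc6 was detected at 1016 and 323 in the controls and 10.2 and 9.94 in the knockouts, and the pepsinogen gene Pgc at 248 and 106, then 0 and 6.33. Atp4a, the catalytic subunit of the acid pump, had 4.14 and 10.3, then 16.7 and 23.5, a 2.73-fold difference that did not pass (adjusted p = 0.0813, limma) except without the second control (0.0407). Gif was at 0, 1.14, 0 and 0 across the 4 libraries, Atp4b at 0, 2.29, 0.925 and 0, and Gkn1 at 0, 0, 0.925 and 1.81.

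Other surfactant protein genes listed were under 10 in all libraries. Sftpb had 9.32 and 4.57, then 3.70 and 9.04 normalized counts, and Sftpc had 0 and 1.14, then 0.925 and 0. Among 6 tested airway and lung genes 0 rose and 0 fell by limma, with 0 higher and 1 lower at an unadjusted p under 0.05. DESeq2 called 0 each way, and edgeR called 0 higher and 1 lower. The sum of that list without Sftpd, 24477 and 26914 in the controls and 26920 and 30419 in the knockouts, was nearly all Slc34a2, a phosphate transporter also expressed in the intestine.

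None of the 30 YAP and TEAD target genes listed was among the 23. The test found 16 of 28 higher and 3 lower, against 15.2% and 12.3% of all tested genes, and the median log2 change of the list was 0.60 against -0.00 over all tested genes. The number higher stayed within 1.5 times of this in all 11 alternative analyses. The number lower did so in 10, and the exception was the fit without the second knockout library. Ankrd1, a classical YAP target, was close to the rule with 2.07 and 0 in the controls and 25.0 and 28.0 in the knockouts, but it fell short of the knockout limit. Cyr61 rose 7.31-fold from 213 and 217 to 1477 and 1689 (adjusted p = 0.000167, limma).

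The other lists held none of the 23 either. The counts below stand against 15.2% of all tested genes that rose and 12.3% that fell. In squamous epithelium 3 of 14 tested genes rose and 2 fell, with 0 to 3 and 0 to 2 over the alternatives. In kidney tubule 1 of 9 rose, Lrp2, from 190.5 and 206 to 4675 and 4927, and 2 fell. In liver and plasma 1 of 18 rose and 11 fell, and in trophoblast and yolk sac 2 of 10 rose and 4 fell. Cytokines had 2 of 17 rising and 6 falling, and striated muscle had 3 of 15 rising and 2 falling, with 0 to 3 rising over the alternatives. Among 26 neuron and glia genes, 7 neutrophil genes and 9 mast cell genes 0 rose by limma, edgeR or DESeq2, and 0 were higher at an unadjusted p under 0.05 in limma. Those that fell by limma numbered 5, 2 and 2. Among 14 lymphocyte, 5 germ line and 20 patterning genes 0 rose by the same tools, while 4, 1 and 1 were higher at an unadjusted p under 0.05 and 2, 1 and 5 fell.

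Promoter windows were matched for 18 of the 23 genes, and those of Sftpd, Psca, Atp12a and Olfr718-ps1 were among the windows not analysed here. The motif GGAATG, searched on both strands, was in 2 of 18 windows, or 11.1%, against 14.7% of all windows and 12.6% of those of tested genes. In Ces2f it began 60 bases before the start, as CATTCC, and in Slc6a20b 40 bases before it, as printed above. The AP-1 motif TGANTCA was in 1 of 18 (5.56%, against 7.81% of all windows), AACAAAG of TCF and LEF in 1 (5.56%, against 5.85%), and TATAAA in 4 (22.2%, against 13.6%). The HNF4 motif CAAAGTCCA was in 1, that of Frmd7, or 5.56% against 0.475%. It was in 2 of 20 windows, or 10%, of the genes lost in the knockout, so it is not particular to the 23. In Cyp2a12 the TATAAA began 39 bases before the start. In Ly6f it began 169 bases before it, and in 1600027J07Rik 119 bases before it, as the reverse complement. In Car4 it lay beyond the start, from base 43.

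The windows held few CpG. The median number of CpG was 4.5, against 19 in windows of tested genes, 7 in all windows, 5 in those of other rows under 10 in both controls and 3.5 in those of the genes lost in the knockout. Fewer than 5 CpG were found in 9 of 18 windows, or 50%, against 13.6% in tested genes and 44.4% in the other rows under 10 in both controls. The highest counts were 31 in Irx4, 16 in Fam46b, 15 in Car4 and 14 in Palm3. These matches and counts are descriptions of the letters in the windows.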

How the data were processed

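RNA-seq of whole small intestine at postnatal day 8 was analysed for 2 control and 2 Lats1/2 KO samples. The submitters' processing notes name STAR, featureCounts, DESeq2 and the build GRCm38. Versions, the strand setting and the handling of multiply matching reads are not given. The deposited signal values are normalized counts, that is reads per gene scaled by the authors with a size factor for each library, as file headers and values show. All values (100%) were whole multiples of 1 step per library within a tolerance of 0.001, so reads were recovered. The deposited log2 fold change, ratio and adjusted p-value per gene are the authors' own.

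The main test was limma 3.58.1 (R 4.3.3), trended, fitted to log2(normalized count + 1) of the 16415 genes with at least 10 in at least 2 libraries, with Benjamini-Hochberg adjustment over all of them and a threshold of 0.05. The spread rested on 2 residual and 3.53 prior degrees of freedom. An exact permutation test of 2 against 2 libraries cannot go below p = 0.333. edgeR 4.0.16 and DESeq2 1.42.0 on the recovered reads were alternatives, with other pseudocounts, filters and scaling and with each library left out. The fit was tested on simulated data.

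Column names give a library's group but not its sample, so libraries are numbered within groups in column order, as names only. Annotation came from GENCODE M21 for 28969 of 29011 IDs, shared sequence from BLAST 2.17.0 of annotated transcripts, and promoter windows from RefSeq. With 1 added before the log, limma's fold changes are too small for genes of low value.

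The 23 genes and all lists were chosen with earlier results of these data known. For 1 of the 23, its own values and its relatives are not reported here, though all counts include it. Named were the 12 genes with the highest knockout mean, those at 0 in both controls, in a list, nearest a limit, within 500 kb of another, or with the widest knockout gap, and up to 8 relatives and 8 neighbours each way with the smallest adjusted p. Slc6a20b, Atp12a, 1600027J07Rik, Olfr718-ps1 and all further genes named were chosen after their values were seen.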

Additional observations from a re-analysis of the deposited data

How the results depend on the processing

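The number of genes meeting the rule was 13 with a control limit of 5, 12 with a knockout limit of 80 and 59 with a knockout limit of 20, against 23. It was 28 on recovered reads and 24 with scaling by total reads. Leaving out each library in turn and keeping the limits for the others gave 30 to 39, the highest without the first knockout library. Over all tested genes, 4508 were called, and 1869 to 3754 when a library was left out, with 908 to 2171 that rose and 864 to 1612 that fell. The lowest counts came without a knockout library (1869 without the second, 1894 without the first). With no filter 1318 fell, against 2017. Neighbours that rose numbered 6 to 12 when a library was left out and relatives that rose 5 to 7. The cause of these moves was not tested, and the fits with a library left out also had fewer samples. No other alternative moved the counts of relatives and neighbours by over 1.5 times. Of 78 single genes examined under up to 11 alternatives, 54 had the same call throughout, 18 lost it in at least 1, and 6 that had not passed did so in at least 1. Of 30 counts over lists, 12 stayed within 1.5 times and 18 moved in at least 1 alternative. On the 250 bases before the start alone, TATAAA was in 3 windows against 4. No paired analysis was possible because the column names carry none of the replicate numbers in the labels. With 2 samples a group, genes with few reads have wide errors, and a control value of 1 or 2 reads fixes a ratio only within its counting interval.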
